A study of Mus musculus with 11 samples.

Results

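Retinoic acid is made from vitamin A, held by binding proteins and destroyed inside the testis, and 9 genes of that route were followed here in whole testis RNA: Stra6, Rdh10, Aldh1a1, Aldh1a2, Aldh1a3, Crabp1, Crabp2, Cyp26a1 and Cyp26b1. They were listed by name for their roles in retinoid metabolism, and all 9 were among the 24411 genes of the deposited count table. The mice were 20 weeks old and untreated, and RNA came from decapsulated testis, so each value is a sum over germ cells, Sertoli cells and interstitial cells. WT samples (n = 4) came from mice labelled C57Bl/6J, Irp1-/- samples (n = 4) from global knockouts of Aco1, the gene of iron regulatory protein 1, and Irp2-/- samples (n = 3) from global knockouts of Ireb2, the gene of iron regulatory protein 2. The Irp1-/- line carries the Aco1 tm1Roua allele on a C57Bl/6J background and was bred with WT littermates, while the background of the Irp2-/- line is not given in the sources used here.

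Iron regulatory proteins bind stem-loops in messenger RNAs of iron uptake, storage and export and so set the iron supply of a cell. Retinoic acid is the vitamin A derivative that pushes spermatogonia into differentiation and germ cells into meiosis. Stra6 carries retinol across the cell membrane, retinol dehydrogenases such as Rdh10 oxidise it to retinal, the retinal dehydrogenases Aldh1a1, Aldh1a2 and Aldh1a3 oxidise retinal to retinoic acid, the cellular retinoic acid binding proteins Crabp1 and Crabp2 bind the product, and the cytochromes Cyp26a1 and Cyp26b1 break it down. In adult testis Aldh1a1 is known from Sertoli cells, though not as a marker of them alone, Aldh1a2 from germ cells and Cyp26b1 from peritubular myoid cells.

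The breakdown gene Cyp26a1 is a textbook target of retinoic acid, whose receptors bind direct repeats of a short half-site in DNA, so its start region is shown. RefSeq promoter windows of GRCm38 were at hand for 6 of the 9 genes, 10 windows in all, each running from 250 bases before the start. Only the 250 bases before the start were searched, and the window bases after it were not read. The half-site AGGTCA was searched, and with it the variant GGGTCA, in which the first base is changed. Also searched were the variant AGTTCA, in which the third base is changed, and the variant GGTTCA, which holds both changes. Both strands were read, and a match was a direct repeat of any of these half-sites with a spacer of 1, 2 or 5 bases. A single match was found, a repeat with a spacer of 5 bases on the minus strand of Cyp26a1, at chr19:37697776-37697792, from 32 to 16 bases before the transcript start of that RefSeq window and inside the longer gene span given for Cyp26a1 further on, whose first base lies upstream of the repeat. The plus strand of chr19:37697770-37697798 is printed here, with the whole repeat and its spacer in capitals.
Cyp26a1 start region: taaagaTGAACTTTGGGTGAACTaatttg
Over the same stretch of 32851 promoter windows, the same kind of repeat stood in 29 (0.0883%). A repeat with a spacer of 1 base stood in 54 (0.164%) and one with a spacer of 2 bases in 57 (0.174%). The match describes letters in this window only.

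Total counts per sample were 15902473 to 22451417 over the 11 samples (median 18519415), and in all 15 pairs of samples of one genotype the counts differed by more than sampling noise. RNA of each targeted gene was lower in its own knockout but still present. In CPM, the count of a gene scaled to the total count of its sample, Irp1-/- testes averaged 8.60 ± 0.605 (SD, n = 4) for Aco1 RNA and WT testes 11.7 ± 1.46 (SD, n = 4) (log2 fold change -0.45, edgeR adjusted p = 0.0158), and Irp2-/- testes averaged 62.7 ± 1.60 (SD, n = 3) for Ireb2 RNA and WT testes 139 ± 4.45 (SD, n = 4) (log2 fold change -1.16, edgeR adjusted p = 2.8e-13). The tissue label held, with the summed level of 5 elongating spermatid markers at 13868 to 18176 CPM in every sample. The labels number the samples but do not say that each came from a separate animal, so p-values measure the spread between these samples, which may be technical. Markers of blood (5 genes, 1 to 3 of them at 0 counts in each sample) summed to 30.2 to 36.3 CPM in WT, 37.4 to 56.7 CPM in Irp1-/- and 25.1 to 38.6 CPM in Irp2-/- testes, so all Irp1-/- samples lay above all WT samples, and the part of blood RNA in the Irp1-/- values was not tested. Markers of epididymis (7 genes, 3 to 4 of them at 0) summed to 170 to 212 CPM over the 11 samples. Few of these genes passed the filter on low counts. For Irp1-/- against WT, Irp2-/- against WT and Irp1-/- against Irp2-/- 3, 2 and 3 blood genes were tested, and 2 epididymis genes in each. None was called by edgeR, beside 1.02%, 1.21% and 4.69% of all genes. The log2 fold changes for Irp1-/- against WT were 2.78 for Hbb-bt, 0.74 for Hba-a1 and 0.086 for Alas2 (edgeR adjusted p of 0.532, 0.416 and 0.709). In bulk RNA, fewer cells of a type and less RNA per cell cannot be told apart.

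Levels between genes are compared as CPM per kb of exon in GENCODE basic transcripts, over the 11 samples. Aldh1a1 (76.8 ± 12.7, SD) and Aldh1a2 (52.1 ± 1.65, SD) stood highest, followed by Cyp26b1 (6.27 ± 0.416), Rdh10 (4.70 ± 0.528) and Crabp1 (3.81 ± 0.458). Stra6 (1.26 ± 0.222), Aldh1a3 (0.894 ± 0.115), Cyp26a1 (0.615 ± 0.225) and Crabp2 (0.0958 ± 0.0899) stood below these. Aldh1a2 lay above Cyp26b1, Cyp26b1 above Rdh10, Crabp1 above Stra6 and Cyp26a1 above Crabp2 without overlap of their ranges, while Aldh1a1 and Aldh1a2, Rdh10 and Crabp1, Stra6 and Aldh1a3, and Aldh1a3 and Cyp26a1 overlapped. The order of Aldh1a1 and Aldh1a2 depended on the transcripts taken for length. With all GENCODE transcripts the exon length of Aldh1a1 was 4.94 kb in place of 2.40 kb, its level fell to 37.3 CPM per kb, and it lay under Aldh1a2 in every sample. The mean of Stra6 then also fell under that of Aldh1a3, with Stra6 still the higher gene in 5 of the 11 samples. Rdh10 lay above Crabp1 in 11 samples with basic transcripts but in 6 with all transcripts (means of 4.05 and 3.81 CPM per kb).

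**Figure D1:**
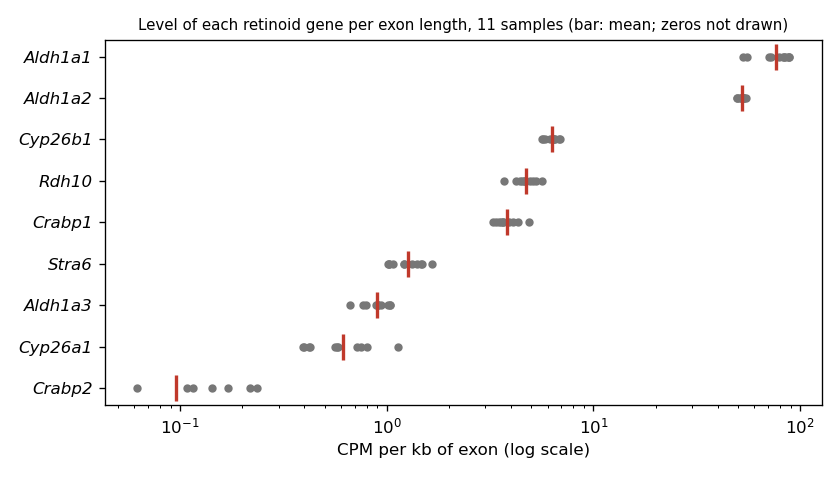
Level of each of the 9 genes in CPM per kb of exon on a log axis, 1 grey point per sample over the 11 samples with the mean as a red bar. Aldh1a1 and Aldh1a2 lie between 49.5 and 88.7, the other genes at most at 6.86, and samples of Crabp2 at 0 counts are not drawn.

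None of the 8 genes that passed the filter on low counts was called at an edgeR adjusted p under 0.05 between any of the genotypes. The background of calls was 1.02% of 16002 genes for Irp1-/- against WT, 1.21% of 16154 genes for Irp2-/- against WT and 4.69% of 16281 genes for Irp1-/- against Irp2-/-, and a count of 0 among 8 genes lies near those shares. At an unadjusted p under 0.05, edgeR gave 1, 0 and 2 of the 8 genes in these comparisons, beside 12.1%, 9.42% and 16.3% of all genes tested. DESeq2, run without that filter and thus on all 9 genes, gave 2, 0 and 2 and called 0. In DESeq2 2, 1 and 1 of the 9 genes had no adjusted p and could not be called. The median log2 fold change of the 8 genes was -0.06 for Irp1-/- against WT, 0.000129 for Irp2-/- against WT and -0.06 for Irp1-/- against Irp2-/-, beside -0.000787, 0.00332 and -0.00189 over all genes tested. Crabp2 did not pass the filter. The comparisons share samples, the WT samples in 2 of them and each knockout in 2.

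**Figure D2:**
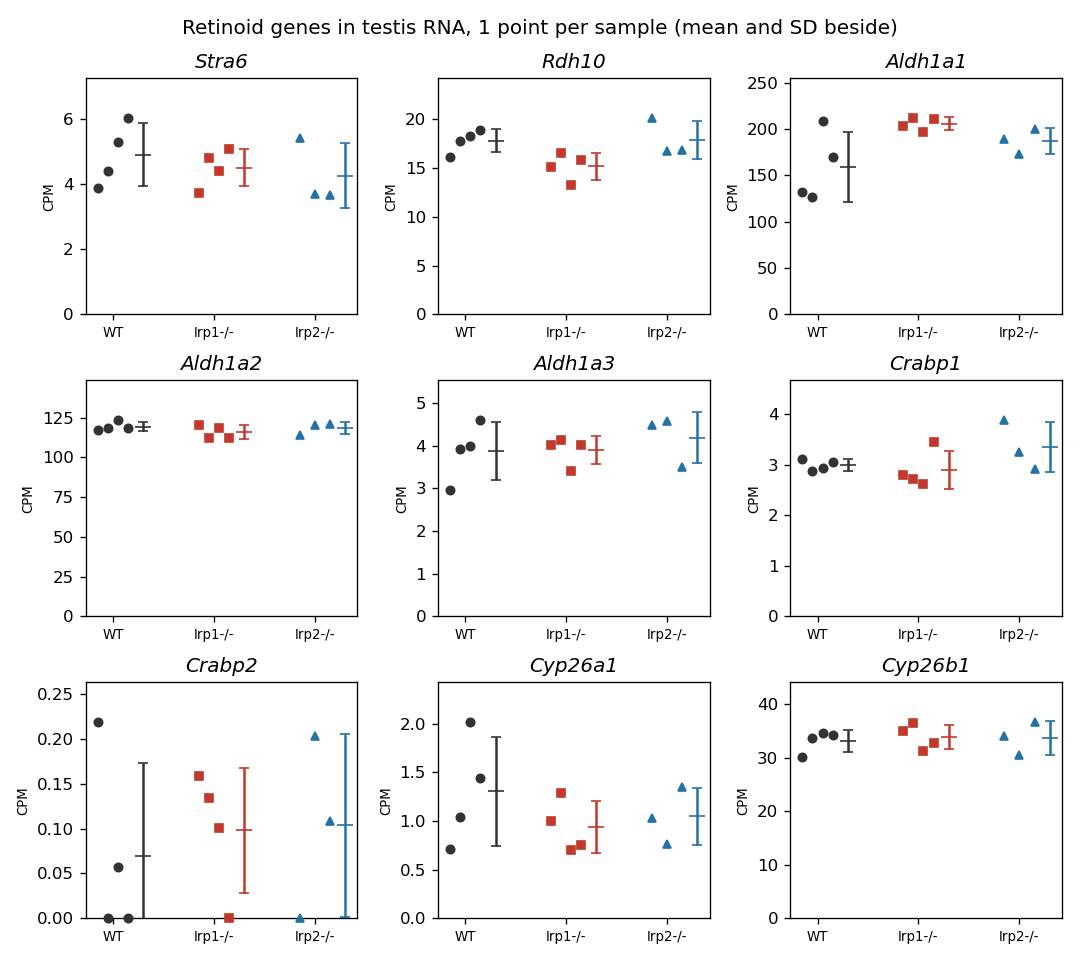
CPM of each gene by genotype, 1 point per sample in replicate order, with the mean and SD beside the points (WT n = 4, Irp1-/- n = 4, Irp2-/- n = 3). Aldh1a2 varied least, between 112 and 124 CPM, and WT samples spread from 127 to 209 CPM for Aldh1a1.

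**Figure D3:**
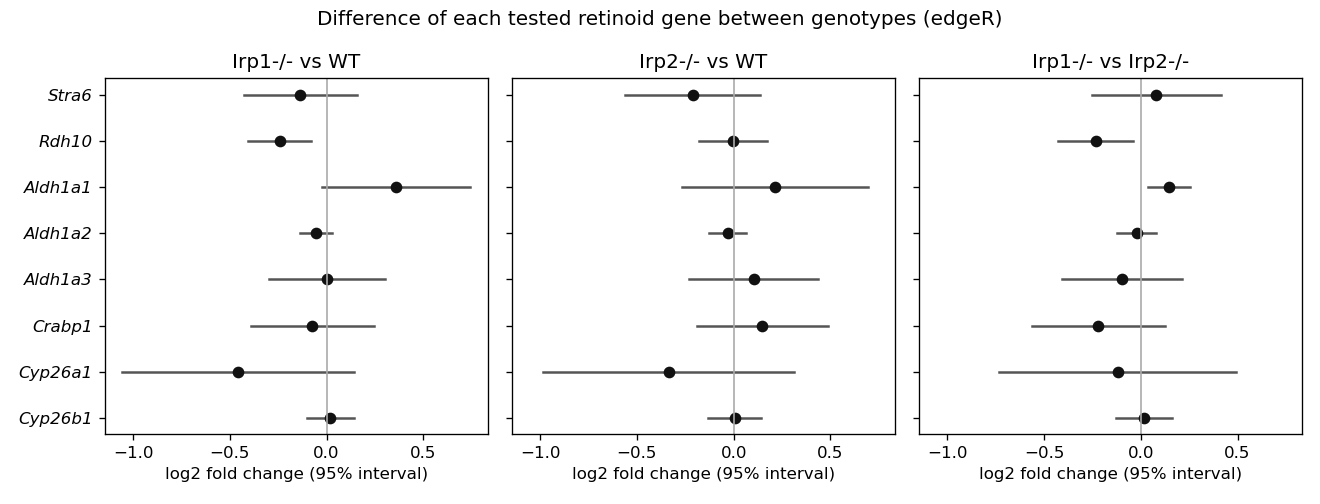
Log2 fold change of the 8 tested genes in each comparison with its 95% interval from the edgeR fit, positive where the genotype named first is higher. The intervals of Rdh10 for Irp1-/- against WT and of Rdh10 and Aldh1a1 for Irp1-/- against Irp2-/- leave out 0, and no adjusted p was under 0.05.

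Stra6, the membrane receptor that takes up retinol from its carrier protein in blood (chr9:58063793-58154004 on mm10, like all positions given here), was a weakly expressed gene of 68 to 121 counts per sample. Stra6 had 3.89, 4.40, 5.31 and 6.05 CPM in WT replicates 1 to 4, 3.75, 4.81, 4.42 and 5.09 CPM in Irp1-/- replicates 1, 2, 6 and 7, and 5.41, 3.71 and 3.67 CPM in Irp2-/- replicates 1 to 3. All 3 genotypes overlapped. The log2 fold change of Stra6 was -0.14 (95% interval -0.43 to 0.16) for Irp1-/- against WT and -0.21 (-0.56 to 0.14) for Irp2-/- against WT, with edgeR adjusted p of 0.773 and 0.799.

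Rdh10, the enzyme of the first and rate-limiting oxidation of retinol to retinal (chr1:16105882-16132550), had the lowest unadjusted p of the 8 genes for Irp1-/- against WT and the highest for Irp2-/- against WT. Its level was 16.2, 17.7, 18.3 and 18.9 CPM in WT replicates 1 to 4 and 15.1, 16.5, 13.2 and 15.8 CPM in Irp1-/- replicates 1, 2, 6 and 7. Irp2-/- replicates 1 to 3 had 20.1, 16.7 and 16.8 CPM of Rdh10. The Irp1-/- samples overlapped WT through a single pair, Irp1-/- replicate 2 above WT replicate 1, and all 4 lay below all 3 Irp2-/- samples. Irp1-/- against WT gave -0.24 on the log2 scale (standard error 0.080, 95% interval -0.41 to -0.08) and the edgeR adjusted p 0.165. For Irp1-/- against Irp2-/- it was -0.23 (95% interval -0.43 to -0.04) with an edgeR adjusted p of 0.188, and groups without overlap made up 15.1% of all genes tested there. Irp2-/- and WT differed in Rdh10 by -0.005 on the log2 scale (95% interval -0.18 to 0.17). Neither difference of Rdh10 thus passed the test over all genes. Irp1-/- replicate 6, the lowest of the 11 samples, is also the only sample whose label holds the letter R in place of L, a letter whose meaning is not stated and whose part was not tested, and without it the log2 fold change of Rdh10 against WT was -0.18 (edgeR adjusted p = 0.418).

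Among the retinal dehydrogenases, Aldh1a1 (chr19:20492583-20643463) spread widely in WT while Aldh1a2 (chr9:71215789-71296243) hardly moved. Aldh1a1 had 132, 127, 209 and 170 CPM in WT replicates 1 to 4, 203, 212, 197 and 211 CPM in Irp1-/- replicates 1, 2, 6 and 7, and 189, 173 and 200 CPM in Irp2-/- replicates 1 to 3. Irp1-/- samples were thus within a narrow band (coefficient of variation 3.50%) whose upper part WT replicate 3 reached, whereas the other WT samples lay below it (coefficient of variation in WT 23.8%). Irp1-/- testes averaged 206 ± 7.22 CPM (SD, n = 4), Irp2-/- testes 187 ± 13.9 CPM (SD, n = 3) and WT testes 159 ± 38.0 CPM (SD, n = 4).

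The log2 fold change of Aldh1a1 was 0.36 (standard error 0.158, 95% interval -0.03 to 0.74) for Irp1-/- against WT, with an edgeR adjusted p of 0.445. Without WT replicate 3 it was 0.51 with an edgeR adjusted p of 0.0258, and over all samples left out in turn it lay between 0.27 and 0.51, so 1 WT sample decided on which side of the threshold Aldh1a1 fell. For Irp2-/- against WT it was 0.21 (95% interval -0.26 to 0.69, edgeR adjusted p = 0.855). Irp1-/- and Irp2-/- differed by 0.15 (95% interval 0.04 to 0.26) on the log2 scale with an edgeR adjusted p of 0.121, and overlapped through Irp2-/- replicate 3.

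The marker sum of Leydig cells, the steroid-making cells between the tubules, ranked the samples as Aldh1a1 did within WT and within Irp2-/-, but not within Irp1-/-. Irp2-/- replicate 2 had a sum of 718 CPM with 173 CPM of Aldh1a1, and WT replicate 1 a sum of 706 CPM with 132 CPM. The summed level of 7 Leydig markers was 706, 686, 988 and 932 CPM in WT replicates 1 to 4, which is the order of Aldh1a1 in these samples. It was 1083, 1124, 942 and 955 CPM in Irp1-/- replicates 1, 2, 6 and 7 and 873, 718 and 964 CPM in Irp2-/- replicates 1 to 3, and none of the 7 genes was at 0 counts in any sample. Cyp17a1, the androgen synthesis enzyme of that list, had 93.5 and 90.2 CPM in WT replicates 1 and 2 and 239 and 192 CPM in WT replicates 3 and 4. All 7 Leydig markers had a positive log2 fold change for Irp1-/- against WT, beside 7958 of all 16002 genes tested. Of the 7, edgeR called 1, Hsd17b3 (0.37, edgeR adjusted p = 0.0232), and DESeq2 called 2, beside 1.02% of all genes in edgeR. Markers of the same cell type can move together, so the 7 are not separate observations. Against Irp2-/-, Hsd3b1 (0.68, edgeR adjusted p = 0.0170) and Insl3 (0.27, edgeR adjusted p = 0.0425) were higher in Irp1-/- testes, beside 4.69% of all genes called. DESeq2 also called 2 of the 7 there. For Irp2-/- against WT, 5 of the 7 had a positive log2 fold change, beside 8288 of all 16154 genes. Hsd3b1 (-0.26) and Insl3 (-0.17) were negative. Both tools called 0 of the 7 there, beside 1.21% of all genes in edgeR. The part of Leydig cell RNA in the Aldh1a1 values was not tested. The summed level of 13 Sertoli cell markers was 1178 to 1307 CPM in WT, 1317 to 1511 CPM in Irp1-/- and 1184 to 1375 CPM in Irp2-/- testes, with none of the 13 genes at 0 counts. For Irp1-/- against WT 1 of the 13, Clu, was called (0.16, edgeR adjusted p = 0.0473), beside 1.02% of all genes. The log2 fold change was positive for 12, beside 7958 of all 16002 genes tested. For Irp1-/- against Irp2-/- edgeR called 4 of the 13, Amh, Fshr, Rhox5 and Trf, beside 4.69% of all genes. DESeq2 called 1 of the 13 in each of these comparisons, and 2 had no adjusted p there for Irp1-/- against WT. The part of Sertoli cell RNA was not tested.

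**Figure D4:**
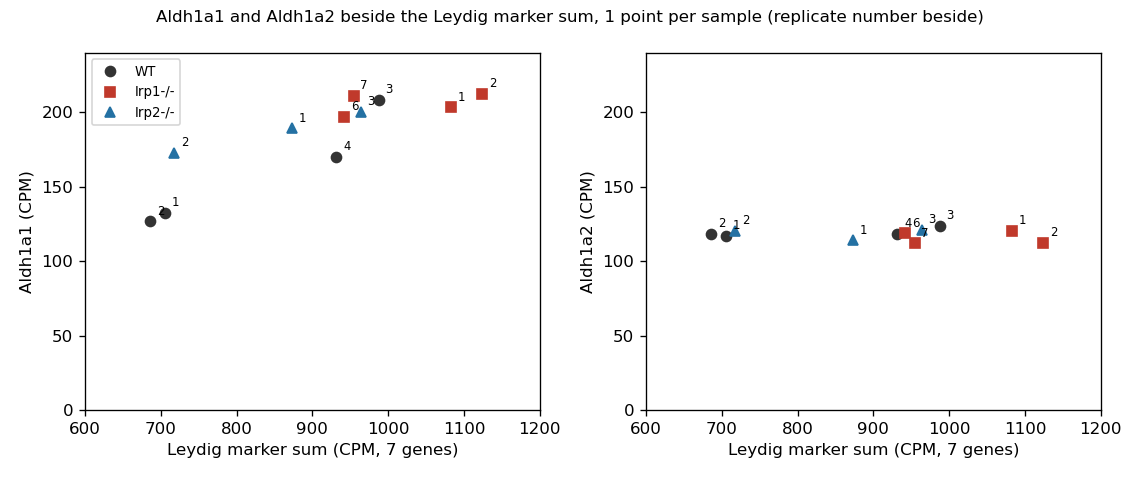
Aldh1a1 (left) and Aldh1a2 (right) in CPM against the summed CPM of 7 Leydig markers, 1 point per sample with its replicate number. The WT samples of lowest Leydig sum (replicates 1 and 2, 706 and 686 CPM) have the lowest Aldh1a1 (132 and 127 CPM), while Aldh1a2 stays between 112 and 124 CPM in all 11 samples.

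Over the 11 samples and 16405 other genes, the log2 CPM of Aldh1a1 was most like that of Fads1 (Pearson r = 0.969), Ctsb (r = 0.968) and Cyp17a1 (r = 0.967), a description in which all genes share the libraries. Fads1 is a fatty acid desaturase and Ctsb a lysosomal protease. The most similar of the other retinoid genes was Cyp26b1, with r = 0.361.

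Aldh1a7, a close relative named after its values were seen, shares 151 distinct stretches of 50 bases with Aldh1a1. They made up 3.06% of the 4934 stretches in Aldh1a1 transcripts and 7.49% of those in Aldh1a7, so some of the reads could be split between the genes. Aldh1a1 averaged 76.8 CPM per kb and Aldh1a7 5.00, and the part of Aldh1a1 reads in the Aldh1a7 values was not tested. Aldh1a7 had 7.78, 7.46, 10.2 and 11.4 CPM in WT replicates 1 to 4, 12.2, 11.6, 13.6 and 11.3 CPM in Irp1-/- replicates 1, 2, 6 and 7, and 8.72, 8.85 and 10.5 CPM in Irp2-/- replicates 1 to 3. Its log2 fold change was 0.39 for Irp1-/- against WT (edgeR adjusted p = 0.0860, and 0.0454 with no count filter) and 0.40 for Irp1-/- against Irp2-/- (edgeR adjusted p = 0.0211).

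Aldh1a2 was the steadiest of the 9 genes, with a coefficient of variation of 3.18% over all samples. Its level was 117, 118, 124 and 118 CPM in WT replicates 1 to 4, 121, 112, 119 and 112 CPM in Irp1-/- replicates 1, 2, 6 and 7 and 114, 120 and 121 CPM in Irp2-/- replicates 1 to 3. The groups overlapped, and the 95% interval of the log2 fold change was -0.14 to 0.03 for Irp1-/- against WT, -0.13 to 0.06 for Irp2-/- against WT and -0.12 to 0.08 for Irp1-/- against Irp2-/-. These were the narrowest intervals of the 8 genes in each comparison. The genes most like it over the 11 samples were Synrg (r = 0.921), Tonsl (r = 0.897) and Dnd1 (r = 0.894), and the most similar retinoid gene was Cyp26a1 (r = 0.241).

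Aldh1a3 (chr7:66390892-66427477) was low, with 54 to 100 counts per sample. It had 2.96, 3.91, 3.98 and 4.61 CPM in WT replicates 1 to 4, 4.01, 4.14, 3.41 and 4.02 CPM in Irp1-/- replicates 1, 2, 6 and 7 and 4.47, 4.58 and 3.51 CPM in Irp2-/- replicates 1 to 3, and the genotypes overlapped. Its log2 fold change was 0.0013 (95% interval -0.30 to 0.30) for Irp1-/- against WT. Of the summed level per kb of the 3 dehydrogenases, Aldh1a1 made up 62.3% ± 1.61 in Irp1-/- (SD, n = 4), 59.5% ± 2.02 in Irp2-/- (SD, n = 3) and 54.9% ± 5.19 in WT (SD, n = 4), and Aldh1a3 under 0.84% in every sample. With exon lengths from all transcripts the Aldh1a1 shares were 44.5%, 41.6% and 37.2%, in the same order of genotypes.

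Of the binding proteins, Crabp1 passed the filter on low counts and Crabp2 did not. Crabp1, which holds retinoic acid in the cytoplasm, had 3.12, 2.87, 2.94 and 3.05 CPM in WT replicates 1 to 4, 2.80, 2.72, 2.61 and 3.46 CPM in Irp1-/- replicates 1, 2, 6 and 7 and 3.89, 3.26 and 2.92 CPM in Irp2-/- replicates 1 to 3. The highest Irp2-/- sample lay above every other sample and the lowest within WT. The log2 fold change of Crabp1 was 0.15 (95% interval -0.19 to 0.49, edgeR adjusted p = 0.890) for Irp2-/- against WT and -0.07 (95% interval -0.39 to 0.25, edgeR adjusted p = 0.906) for Irp1-/- against WT. Crabp1 is the gene nearest to a targeted locus: on mm10 it spans chr9:54764748-54773110 and ends 89.5 kb before Ireb2 (chr9:54862658-54912534). For Crabp1 in Irp2-/- samples, the loss of Ireb2 and differences in the DNA around the targeted locus cannot be told apart. Stra6 (3151.3 kb) and Aldh1a2 (16303.3 kb) lie farther along chromosome 9, and none of the 9 genes is on chromosome 4 with Aco1.

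Crabp2, the binding protein that delivers retinoic acid to its nuclear receptors (chr3:87948693-87953372), was at the edge of detection. It had 19 counts over the 11 samples, 0 to 4 in each, and 4 samples were at 0: WT replicates 2 and 4, Irp1-/- replicate 7 and Irp2-/- replicate 1. A count of 0 allows up to 3 counts, and no difference between genotypes could be detected at this depth (with no count filter, edgeR adjusted p of 0.903 for Irp1-/- against WT, 0.954 for Irp2-/- against WT and 0.988 for Irp1-/- against Irp2-/-).

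In the breakdown arm Cyp26b1 (chr6:84571414-84593908) carried most of the RNA. Cyp26b1 had 30.2, 33.7, 34.6 and 34.2 CPM in WT replicates 1 to 4, 35.1, 36.4, 31.2 and 32.8 CPM in Irp1-/- replicates 1, 2, 6 and 7 and 34.1, 30.4 and 36.7 CPM in Irp2-/- replicates 1 to 3. The groups overlapped, with a log2 fold change of 0.02 (95% interval -0.10 to 0.14) for Irp1-/- against WT. It was 0.0053 (95% interval -0.13 to 0.14) for Irp2-/- against WT and 0.02 (95% interval -0.13 to 0.16) for Irp1-/- against Irp2-/-. Cyp26b1 was 92.5% ± 1.53 of the summed level per kb of Cyp26a1 and Cyp26b1 in Irp1-/- (SD, n = 4), 91.6% ± 1.47 in Irp2-/- (SD, n = 3) and 89.7% ± 3.60 in WT (SD, n = 4). Markers of peritubular myoid cells, in which Cyp26b1 is known, summed to 85.7 to 104 CPM in WT, 94.5 to 102 CPM in Irp1-/- and 94.7 to 113 CPM in Irp2-/- testes.

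Cyp26a1 (chr19:37697738-37701536), whose start region is printed above, was measured at 12 to 35 counts per sample and varied most among the tested genes, with a coefficient of variation of 36.6%. It had 0.712, 1.04, 2.02 and 1.44 CPM in WT replicates 1 to 4, 1.00, 1.29, 0.703 and 0.755 CPM in Irp1-/- replicates 1, 2, 6 and 7 and 1.03, 0.763 and 1.35 CPM in Irp2-/- replicates 1 to 3. The genotypes overlapped, with the highest values in WT replicates 3 and 4. Its log2 fold change was -0.46 (95% interval -1.06 to 0.14, edgeR adjusted p = 0.572) for Irp1-/- against WT and -0.34 (95% interval -0.98 to 0.31, edgeR adjusted p = 0.846) for Irp2-/- against WT. Cyp26a1 was the retinoid gene most like Cyp26b1 in pattern, with r = 0.740 over the 11 samples.

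The wider route was followed in a list of 44 other retinoid genes, of which 43 were in the table and 31 passed the filter. Adh4, an alcohol dehydrogenase that oxidises retinol, was the only one called, and only for Irp1-/- against Irp2-/- (1 of 31 genes, beside 4.69% of all genes). At an unadjusted p under 0.05 edgeR gave 4 genes for Irp1-/- against WT, 2 for Irp2-/- against WT and 9 for Irp1-/- against Irp2-/- of these 31, beside the shares of 12.1%, 9.42% and 16.3% over all genes. DESeq2, which gave a p for 42, 43 and 43 genes of the list, had 3, 2 and 5 under 0.05, with 0, 0 and 1 called. Of these genes 15, 7 and 10 had no adjusted p in DESeq2 and could not be called. The median log2 fold change of the 31 genes was -0.004, -0.010 and 0.021, near those of all genes.

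Adh4 had 11.7, 10.6, 9.12 and 9.71 CPM in WT replicates 1 to 4, 11.7, 8.24, 10.3 and 11.4 CPM in Irp1-/- replicates 1, 2, 6 and 7 and 9.08, 5.90 and 6.97 CPM in Irp2-/- replicates 1 to 3. All 3 Irp2-/- samples lay below all 4 WT samples (groups without overlap made up 9.76% of all genes there), and Irp2-/- replicate 1 overlapped Irp1-/- replicate 2. The log2 fold change was 0.50 (standard error 0.141, 95% interval 0.21 to 0.80) for Irp1-/- against Irp2-/- with an edgeR adjusted p of 0.0474, and -0.50 (standard error 0.132) for Irp2-/- against WT with 0.0665. The call rested on single samples: the edgeR adjusted p for Irp1-/- against Irp2-/- was 0.156 without Irp1-/- replicate 1, 0.0751 without Irp1-/- replicate 6, 0.114 without Irp1-/- replicate 7, 0.250 without Irp2-/- replicate 2 and 0.132 without Irp2-/- replicate 3. For Irp2-/- against WT, Adh4 was called without Irp2-/- replicate 1 (0.00399) and without WT replicate 3 (0.0392).

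Of the other 9 tested genes that oxidise or reduce retinol and retinal, none was called, beside 1.02%, 1.21% and 4.69% of all genes. Adh5, a broadly expressed alcohol dehydrogenase, was 20.0 ± 0.457 CPM in Irp1-/- (SD, n = 4) and 16.7 ± 1.82 CPM in WT (SD, n = 4) testes without overlap, with a log2 fold change of 0.25 and an edgeR adjusted p of 0.107; groups without overlap made up 6.18% of all genes in that comparison. Rdh11, a retinal reductase and the highest gene of this role, was 168 ± 2.42 CPM in WT (SD, n = 4), 167 ± 7.66 CPM in Irp1-/- (SD, n = 4) and 164 ± 4.35 CPM in Irp2-/- (SD, n = 3) testes.

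Among the genes of storage and carotene cleavage, 0 of 6 were called, beside 1.02%, 1.21% and 4.69% of all genes in the 3 comparisons. Bco1, which cleaves beta-carotene into retinal, was 36.4 ± 2.52 CPM in Irp1-/- (SD, n = 4) and 41.3 ± 2.31 CPM in WT (SD, n = 4) testes (log2 fold change -0.20, edgeR adjusted p = 0.103, and 0.0307 without Irp1-/- replicate 7). Retsat, a retinol saturase, was 11.8 ± 0.739 CPM in Irp1-/- (SD, n = 4) and 9.56 ± 0.933 CPM in Irp2-/- (SD, n = 3) testes without overlap (log2 fold change 0.32, edgeR adjusted p = 0.0671, and 0.0444 without Irp2-/- replicate 3). Groups without overlap made up 15.1% of all genes for Irp1-/- against Irp2-/-. Lipe, a lipase that also cleaves retinyl esters, was 305 ± 8.41 CPM in WT (SD, n = 4) and differed from it by -0.01 and 0.0048 on the log2 scale in Irp1-/- and Irp2-/- testes.

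None of the 4 tested genes of retinoid binding and transport and none of the 6 receptors was called. The shares over all genes were 1.02%, 1.21% and 4.69%. The retinoic acid receptor gene Rarb was 0.801 ± 0.182 CPM in Irp1-/- (SD, n = 4) and 1.40 ± 0.173 CPM in Irp2-/- (SD, n = 3) testes without overlap, on 10 to 35 counts per sample (log2 fold change -0.79, 95% interval -1.34 to -0.24, edgeR adjusted p = 0.102). Groups without overlap made up 15.1% of all genes in that comparison. Rarg, the receptor of spermatogonia, was 5.72 ± 0.787 CPM in Irp2-/- (SD, n = 3) and 4.08 ± 0.776 CPM in WT (SD, n = 4) testes (log2 fold change 0.46, edgeR adjusted p = 0.206). Rxra, a partner of these receptors and the highest of the 6 genes, stayed between 37.5 and 46.6 CPM in all samples. The third breakdown enzyme, Cyp26c1, had 9 counts in all and did not pass the filter (edgeR adjusted p of 0.712, 0.989 and 0.612 with no count filter, in the order Irp1-/- against WT, Irp2-/- against WT and Irp1-/- against Irp2-/-).

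Genes that germ cells switch on under retinoic acid were not called either, 0 of 5 in each comparison. A count of 0 among 5 genes lies near the shares of 1.02%, 1.21% and 4.69% over all genes. Rec8, a meiotic cohesin, was 79.1 ± 2.41 CPM in WT (SD, n = 4), 76.9 ± 7.69 CPM in Irp1-/- (SD, n = 4) and 79.2 ± 2.54 CPM in Irp2-/- (SD, n = 3) testes. The summed level of 7 spermatogonial markers, the cells in which the response starts, was 101 to 107 CPM in WT, 97.0 to 110 CPM in Irp1-/- and 96.5 to 114 CPM in Irp2-/- testes, and that of 7 spermatocyte markers was 1040 to 1134, 1035 to 1060 and 1077 to 1129 CPM.

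**Figure D5:**
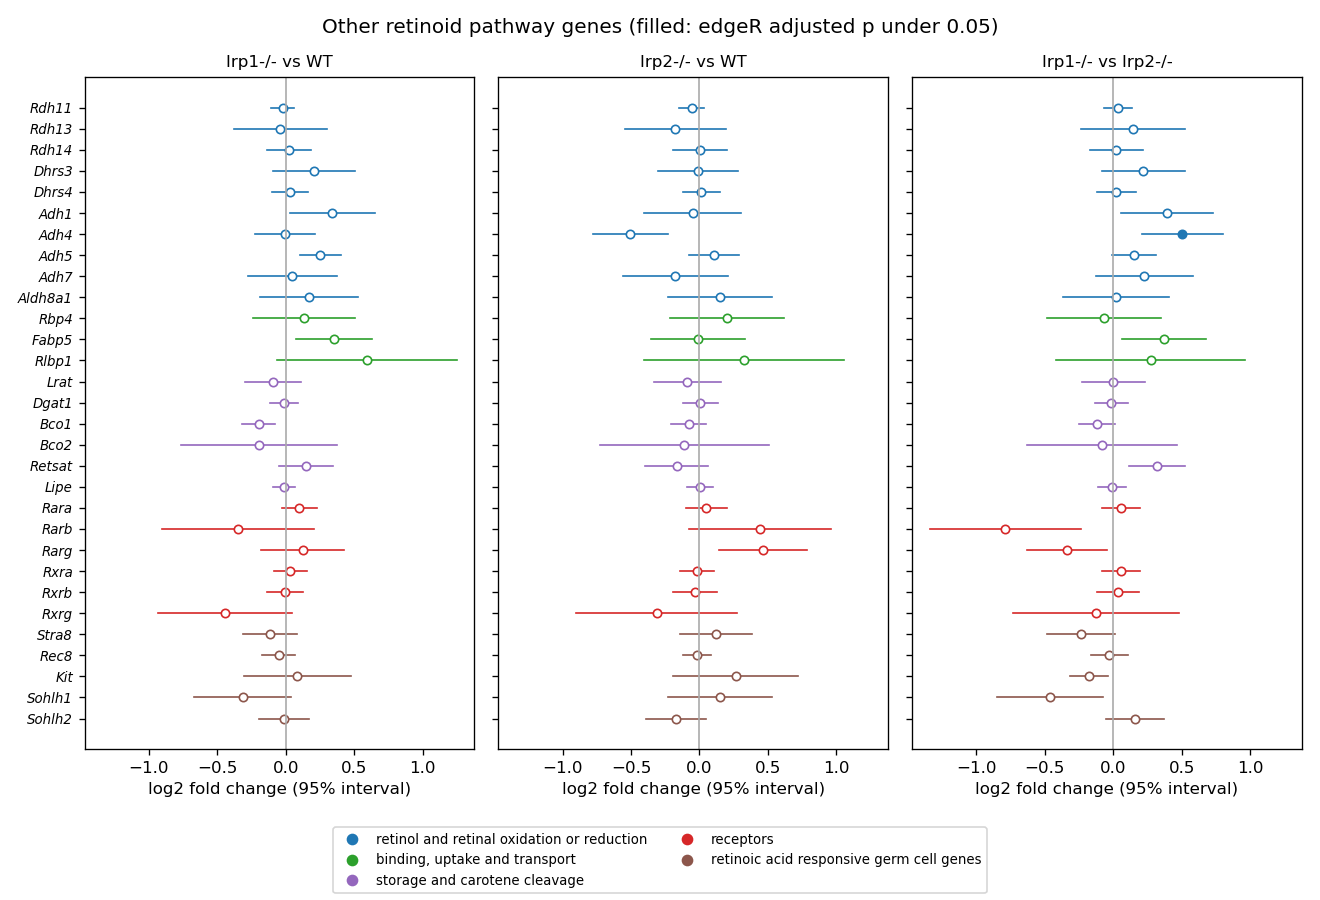
Log2 fold change of 30 of the 31 tested genes of the wider retinoid list with its 95% interval in each comparison, coloured by role, positive where the genotype named first is higher. The single filled point is Adh4 for Irp1-/- against Irp2-/- (0.50), and open points did not pass an edgeR adjusted p of 0.05.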

How the data were processed

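Polyadenylated RNA of decapsulated testis was sequenced with a stranded kit as paired-end reads. The authors deposited raw read counts per gene, obtained on the mm10 genome with the RNA-seq workflow of nf-core. The submitters' processing notes name bcl2fastq 2.20.0.422 for demultiplexing, and the counting tool is not given in the sources used here, so whole numbers may be rounded estimates. All 11 per-sample columns of the 24411 genes were used, and genotypes came from the labels. CPM was computed on total counts (15902473 to 22451417), and floors cover counting error only. CPM per kb used GENCODE vM21 exon lengths on GRCm38, and positions and promoter windows came from RefSeq on GRCm38.

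Each pair of genotypes was fitted on its own samples with edgeR 4.0.16 in R 4.3.3 (filter on low counts, TMM normalization, quasi-likelihood test in its robust form, Benjamini-Hochberg adjustment over all genes tested, threshold 0.05), and checked on simulated data. Standard errors and 95% intervals came from the fold change, the F statistic and its degrees of freedom. Alternatives were DESeq2 1.42.0, which the authors used, RLE normalization, no filter, at least 10 counts in every sample, a fit of all 11 samples, a replicate block and each sample left out in turn.

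The 9 genes, the wider list and the marker lists were chosen with earlier results of these data known. Named beside the 9 genes were the targeted genes, any gene of the wider list with an adjusted p under 0.05 plus those of lowest p up to 6, the gene of highest CPM of each role, and, for genes with a mean of at least 5 CPM, the 3 genes of most similar log2 CPM (prior count 2). Aldh1a7, the marker genes named and the genes called in an alternative fit were added after their values were seen. Meiosin, of the wider list, was not analysed here. Some genes covered by this rule are not reported here.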

Additional observations from a re-analysis of the deposited data

How the results depend on the processing

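Of the fold changes of the 8 tested genes, 291 had the same sign and stayed on the same side of the threshold under the alternatives, 3 passed the threshold (all Aldh1a1) and 26 changed sign, and the mean levels moved by less than 1 SD with TMM library sizes in all 27 cases. No cause was tested. Calls among the 9 genes ranged from 0 to 1 for Irp1-/- against WT as samples were left out (1 without WT replicate 3, Aldh1a1). As samples were left out, calls in the wider list ranged from 0 to 1 in each comparison: 1 for Irp1-/- against WT without Irp1-/- replicate 7 (Bco1), 1 for Irp2-/- against WT without Irp2-/- replicate 1 or WT replicate 3 (Adh4, which was also the 1 call there with no count filter), and 0 for Irp1-/- against Irp2-/- without Irp1-/- replicate 1, 6 or 7 or Irp2-/- replicate 2. Without Irp2-/- replicate 3 the call there was Retsat and not Adh4. As samples were left out, the log2 fold change of Aldh1a3 ranged from -0.101 to 0.0935 for Irp1-/- against WT and from -0.0040 to 0.22 for Irp2-/- against WT. That of Cyp26b1 ranged from -0.0247 to 0.0610 for Irp1-/- against WT, from -0.0506 to 0.0659 for Irp2-/- against WT and from -0.0429 to 0.0737 for Irp1-/- against Irp2-/-. Rdh10 ranged from -0.104 to 0.0412 for Irp2-/- against WT, and for Irp1-/- against Irp2-/- Cyp26a1 ranged from -0.336 to 0.0825 and Stra6 from -0.0197 to 0.30. Cyp26b1 for Irp2-/- against WT was -1.6e-05 with RLE normalization and -0.00071 with DESeq2. Depth limits Crabp2, Cyp26c1 and Cyp26a1.

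The replicate numbers were not shown to pair the samples: deviations of samples with the same number from their group means correlated at 0.0913 and 0.0158 for Irp1-/- against WT, at 0.0418, 0.106 and 0.00928 for Irp2-/- against WT, and at 0.0452 and 0.0299 for Irp1-/- against Irp2-/-. With a replicate block, which leaves only replicates 1 and 2 to carry the Irp1-/- comparisons, 1 of the 8 genes (Aldh1a1) was called for Irp1-/- against WT (log2 fold change 0.65) and 1 (Aldh1a1, 0.20) for Irp1-/- against Irp2-/-. In the wider list the block gave 3 calls for Irp1-/- against WT (Adh5, Bco1 and Kit) and 0 for Irp1-/- against Irp2-/-. Under the block the sign changed for Cyp26a1 (0.36 for Irp1-/- against WT and 0.36 against Irp2-/-), Stra6 (0.0149 against WT and -0.0795 against Irp2-/-) and Rdh10 (0.0177 for Irp2-/- against WT).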

Other observations

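Kit and Stra8 are genes that differentiating spermatogonia switch on under retinoic acid, and neither was called in any comparison fitted without a replicate block. Kit had 15.6, 15.8, 25.2 and 24.6 CPM in WT replicates 1 to 4, 22.9, 20.8, 22.6 and 20.7 CPM in Irp1-/- replicates 1, 2, 6 and 7 and 24.7, 23.8 and 25.7 CPM in Irp2-/- replicates 1 to 3. WT replicates 1 and 2 were low for Kit as they were for Aldh1a1 (132 and 127 CPM) and for the Leydig marker sum (706 and 686 CPM), and the remaining WT samples lay above the Irp1-/- samples for Kit. Stra8 did not share that split, with 9.15 to 12.3 CPM in WT, 9.34 to 11.2 CPM in Irp1-/- and 10.2 to 14.6 CPM in Irp2-/- testes. The spermatogonial marker sum was 101 to 107 CPM in WT. The parts of spermatogonial and of Leydig cell RNA in the Kit values were not tested.

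Rdh10 was most like Naa60 (Pearson r = 0.976), Elp2 (r = 0.960) and Irgc1 (r = 0.948) over the 11 samples, and Crabp1 was the most similar retinoid gene (r = 0.597). Cyp26b1 was most like Ttl (r = 0.910) and Trappc13 (r = 0.879). These are descriptions over 11 samples that share their libraries. In each of the 18 groups of 4 samples examined for the 9 genes, the gap of the farthest sample to its neighbour stayed under Dixon's critical value at the 95% level.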
